A study of Mus musculus with 18 samples.

Results

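The genes described here make thyroid hormone, and they are 9 in number: Tg, Slc5a5, Slc26a4, Slc26a7, Duox1, Duox2, Duoxa1, Duoxa2 and Iyd. Their probes were found by name, current or older, among the gene probes of a mouse oligonucleotide array, which gave 12 of 41174 probes for 9 of 27670 genes. Expression was measured on 18 such arrays in areas cut by laser from frozen thyroid sections of male C57BL/6 mice, with RNA of the area in Cy5 and a reference RNA common to all arrays in Cy3. The 4 groups are the central area of dissected glands (n = 5), the central area of normal glands (n = 5), the peripheral area of dissected glands (n = 5) and the peripheral area of normal glands (n = 3), where dissected means after partial thyroidectomy and normal means without it. Per the labels, the reference was pooled RNA of Swiss Webster mice from 10 listed tissues, which do not include thyroid. The labels give no time after surgery and no age, and they do not tie areas to mice, so areas of 1 animal may count as replicates and p-values measure the spread between captured areas, which may be partly technical.

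Thyroid hormone is built inside the protein thyroglobulin (Tg), which follicular cells secrete into the lumen of the follicle. Iodide enters the cell at its basal side through the sodium iodide symporter (Slc5a5) and leaves toward the lumen through anion exchangers, of which pendrin (Slc26a4) is the best known and Slc26a7 another that thyroid hormone synthesis needs. At the luminal membrane the dual oxidases (Duox1, Duox2), brought there by their maturation factors (Duoxa1, Duoxa2), make the hydrogen peroxide needed to attach iodine to thyroglobulin. After hormone release, iodotyrosine deiodinase (Iyd) recovers the iodide left on unused iodotyrosines.

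The probes are 60 bases long, and the files place them on the mouse build mm7. Which exon or untranslated region lies under a probe was not determined, since no mm7 genome was at hand. The first 30 bases of both Tg probes are shown because these probes overlap and thus do not check Tg independently. The bases are copied from the scanner files, 5′ to 3′, and capitals mark those that the probes share.
Tg: AGAGTGAAGAGGAAGACTTGGAAGTTGGAC
Tg, second probe: caaggatgcacagttaaccaAGAGTGAAGA
The first Tg probe lies at chr15:66934195-66934254 and the second at chr15:66934175-66934234, both on the plus strand, and they share 40 bases. The next pair, for Slc26a7 and on the minus strand, does not overlap.
Slc26a7: ttctgagactccaaagactgcacataagtt
Slc26a7, second probe: gcatgatgaaacctcgcaacagataaaaat
They lie at chr4:14430339-14430398 and chr4:14446625-14449984, and the second interval is longer than the probe. The pair for Duoxa1, on the minus strand, is shown because its probes gave unlike patterns.
Duoxa1: gtgggtttcagttgtatcatgttcagttgt
Duoxa1, second probe: tgaattccagttactctaaagcagcagccc
They lie at chr2:122044453-122044512 and chr2:122044902-122044961, with starts 449 bases apart. The single Slc5a5 probe is shown because it gave no signal well above background.
Slc5a5: ggcaactgagaacactcagcttctccagac
It lies on the minus strand at chr8:69338101-69338160.
The other single probes lie at chr12:29359649-29359708 (Slc26a4, minus strand), chr2:122088608-122088667 (Duox1, plus strand, printed in 10 spots), chr2:122023796-122023855 (Duox2, minus strand), chr2:122043229-122043288 (Duoxa2, plus strand) and chr10:6791224-6791283 (Iyd, minus strand). Both oxidases and both maturation factors thus have their probes in 1 stretch of chromosome 2, in the order Duox2, Duoxa2, Duoxa1, Duox1. The files name Tg, Duoxa2 and Iyd by older names, Tgn, 9030623N16Rik and 0610009A07Rik.

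Of all gene probes, 24.7% to 44.0% were well above background in Cy5 on an array, a mark set by the scanner software. On 4 arrays, normal peripheral 1, dissected central 1 and 2 and dissected peripheral 1, the share was 29.5% or less, against 35.2% or more on the other 14. Follicular cell markers were present, since Tg and Nkx2-1 were well above background on 18 of 18 arrays, Pax8 on 12 and Tshr on 9, while Slc5a5 and Foxe1 were so on 0. The mean log2 ratio over 11 C cell markers of 12 was -1.29 to 1.12 in dissected central and 0.65 to 1.59 in normal central areas, against -2.55 to -2.14 in dissected peripheral and -1.80 to -0.98 in normal peripheral areas. It thus separated central from peripheral arrays except for dissected central 2, which had the value -1.29, and its part in the results on area was not tested. Normal central 3 had a ratio of 3.99 for the 1 parathyroid marker tested of 3, against -4.99 to -1.80 on all other arrays. Each group kept 1 array position on every slide that carried it, so position and group cannot be told apart. Normal peripheral areas were on slides 2, 3 and 4 only, and the other groups on all 5 slides.

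No member was called in any comparison. The level of a member is given as the log2 ratio of Cy5 over Cy3, a difference is that of 2 group means of this ratio, and a call is an adjusted p under 0.05 in a limma fit over all 14663 genes tested. The members tested were 8 of 9, since Slc5a5 did not pass the filter on dim probes. Dissected against normal called 0 of 8 members in the central area, where 0% of all genes were called, and 0 of 8 in the peripheral area, where 0% of all genes were called. At an unadjusted p under 0.05 these comparisons held 0 and 0 members, against 5.24% and 8.35% of all genes. Central against peripheral called 0 of 8 members in normal glands, beside 0.28% of all genes, and 0 of 8 in dissected glands, beside 0.587%. At an unadjusted p under 0.05 the limma fit gave 0 members in normal glands, beside 8.59% of all genes, and in dissected glands 1 member, Tg, beside 7.43%. The test of whether the change after dissection differed between the areas called 0 members and 0% of all genes, and 0 members and 5.82% of all genes had an unadjusted p under 0.05. The F test of any difference among the 4 groups called 0 members and 1.06% of all genes, and at an unadjusted p under 0.05 it gave 0 members and 8.93% of all genes.

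**Figure D1:**
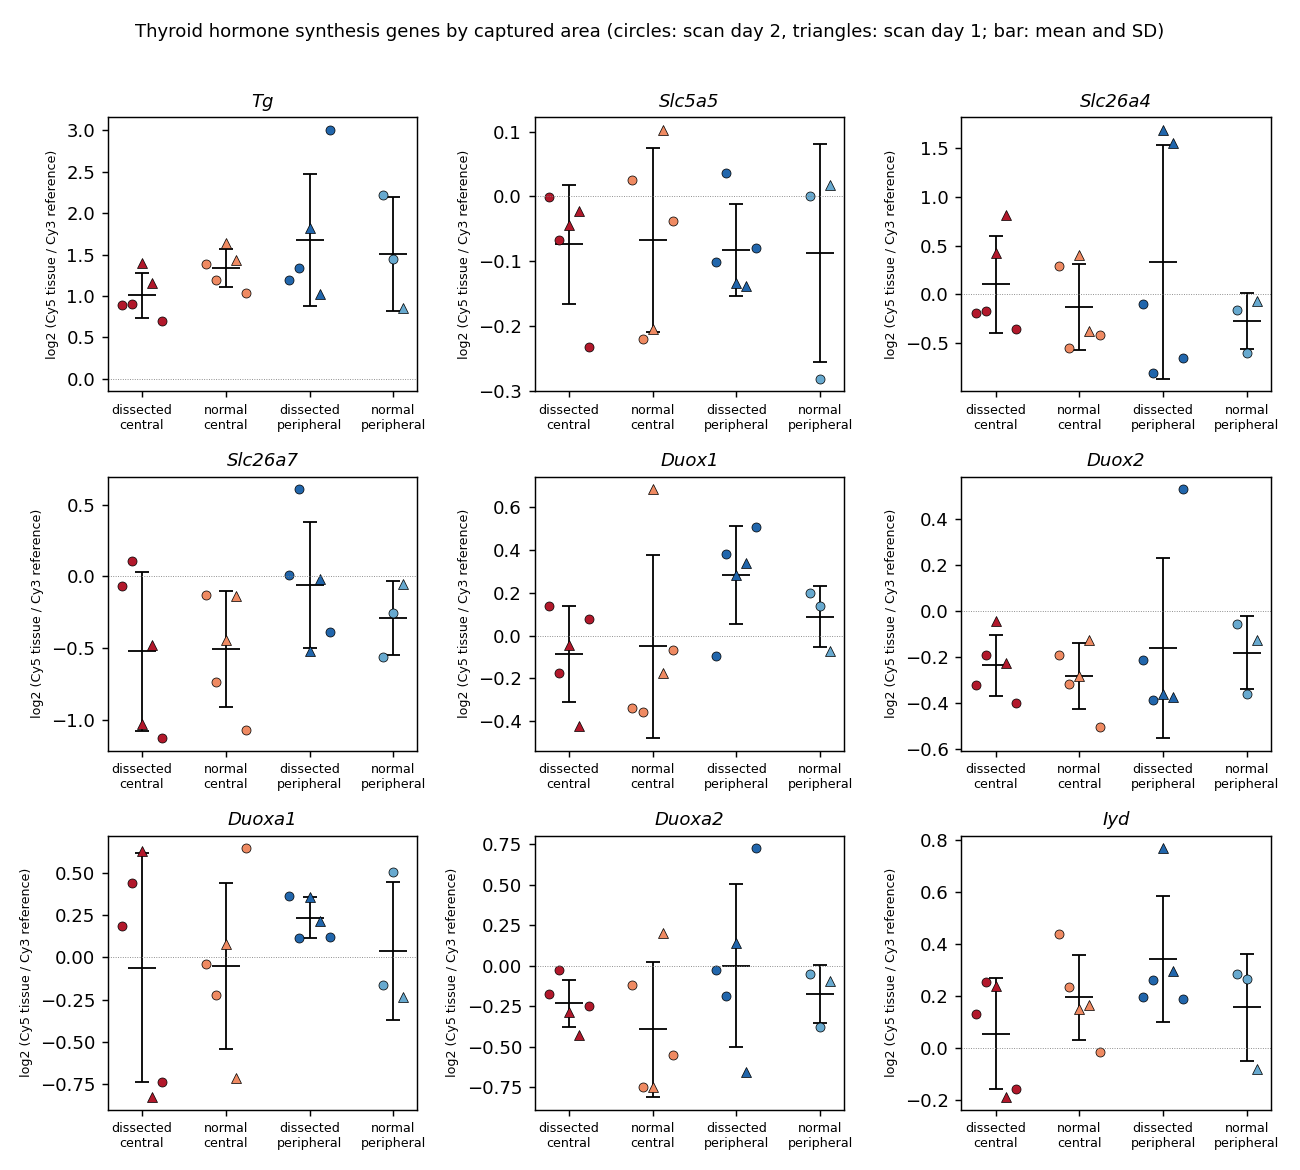
Log2 ratio of Cy5 (captured thyroid area) over Cy3 (common reference) for the probe of each of the 9 genes on 18 arrays, by group, with the mean and SD as bars, circles for scan day 2 and triangles for scan day 1. The groups overlap for every gene, and the high Tg point, at 3.01, and the high Duox2 point, at 0.53, are both dissected peripheral 5.

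Thyroglobulin is the scaffold on which the hormone is made and was by far brighter than background on every array. The Tg ratio was 0.89, 0.90, 1.40, 1.16 and 0.69 in dissected central areas, against 1.38, 1.19, 1.64, 1.44 and 1.04 in normal central areas. It was 1.20, 1.34, 1.82, 1.02 and 3.01 in dissected peripheral areas, against 2.23, 1.45 and 0.86 in normal peripheral areas. All 18 ratios were above 0, the groups overlapped, and dissected peripheral 5, at 3.01, stood above every other array. The group means were 1.01 ± 0.27 in dissected central (SD, n = 5), 1.34 ± 0.23 in normal central (SD, n = 5), 1.68 ± 0.80 in dissected peripheral (SD, n = 5) and 1.51 ± 0.69 in normal peripheral areas (SD, n = 3). In a captured area, fewer cells of a type and less RNA per cell cannot be told apart.

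Within dissected glands, Tg was 1.59-fold lower in central than in peripheral areas by these means, a log2 difference of -0.67 (SE 0.31, 95% interval -1.33 to -0.0099, adjusted p = 0.667). The unadjusted limma p was 0.047, and the difference did not pass the test over all genes. On the 5 slides, each with 1 array of both groups, the central value was lower on 4, with a difference down to -2.31, and higher by 0.14 on the other. Without dissected peripheral 5 the difference was -0.34, and by the normalized Cy5 channel alone, without the reference, it was -0.10. That channel was quantile-normalized across arrays, which gives probes of like rank like values. It can thus hide a difference in a probe as bright as Tg. In the central area the difference of dissected minus normal was -0.33 (SE 0.31, 95% interval -0.99 to 0.33, adjusted p = 0.998). That ratio was lower in the dissected area on 5 of 5 slides, with differences of -0.49 to -0.24. Cy5 alone gave a difference of 0.04, while the mean Cy5 intensity before normalization was 263328 in dissected and 340213 in normal central arrays. In the peripheral area dissected minus normal was 0.17 (SE 0.36, 95% interval -0.59 to 0.93, adjusted p = 0.936), and it turned to -0.16 without dissected peripheral 5. In normal glands central minus peripheral was -0.17 (SE 0.36, 95% interval -0.93 to 0.59, adjusted p = 0.938), and it turned to 0.19 without normal peripheral 1. Each of these intervals spans both directions except the first, which ends at -0.0099.

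Tg also gave strong signal in the reference channel, although no thyroid is listed in the reference. Its Cy3 intensity was 121649, 84961, 88040, 82331 and 71302 in dissected central, against 75977, 84399, 69553, 72854 and 56244 in normal central arrays. It was 74769, 62132, 52481, 90070 and 21185 in dissected peripheral, against 161222, 84210 and 149793 in normal peripheral arrays. Dissected peripheral 5, the array with the highest ratio, had the lowest Cy3 intensity, and normal peripheral 1 and 3 had the highest. Yet normal peripheral 1 had a ratio of 2.23, above all arrays but dissected peripheral 5. Its Cy5 intensity was 223018, so the log2 ratio of its intensities lay well below 2.23 and the loess step raised it. It was also the array with the smallest share of probes well above background, 24.7%. The Cy5 intensity was 229451, 164772, 291398, 331627 and 299392 in dissected central, against 383112, 242113, 352843, 373095 and 349900 in normal central arrays. It was 189626, 275989, 329341, 311236 and 440074 in dissected peripheral, against 223018, 306062 and 252716 in normal peripheral arrays. Dissected peripheral 5 was again at the end of the range, here at its top. The part of the reference channel in the differences of Tg was not tested. The values by Cy5 alone cannot decide it, since quantile normalization draws very bright probes to like values on all arrays.

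**Figure D2:**
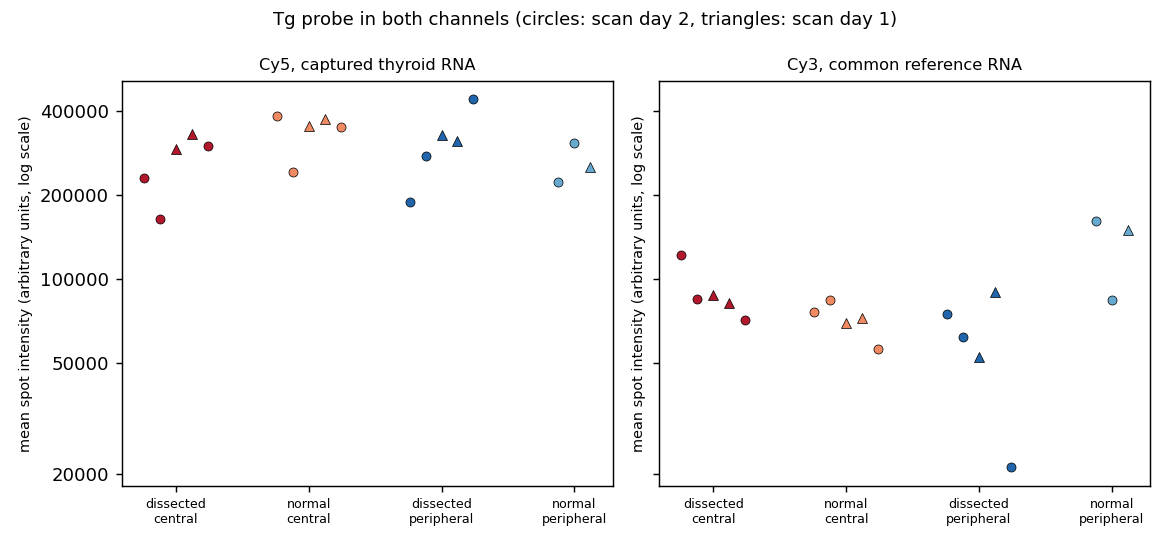
Mean spot intensity of the Tg probe (arbitrary units, log axis) in Cy5 on the left and in Cy3 on the right, 1 point per array by group. Cy5 runs over 164772 to 440074 and Cy3 over 21185 to 161222, with dissected peripheral 5 highest in Cy5 and lowest in Cy3.

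The second Tg probe followed the first, with a Pearson r of 0.96 over the 18 arrays and differences between the probes of at most 0.32 on an array. It read 1.05 ± 0.31 in dissected central (SD, n = 5), 1.28 ± 0.32 in normal central (SD, n = 5), 1.67 ± 0.92 in dissected peripheral (SD, n = 5) and 1.51 ± 0.45 in normal peripheral areas (SD, n = 3). Its central minus peripheral difference in dissected glands was -0.62 (SE 0.33, 95% interval -1.32 to 0.078, adjusted p = 0.767), so neither probe passed the test. In the central area its dissected minus normal difference was -0.23 (SE 0.33, 95% interval -0.93 to 0.47, adjusted p = 0.999). By this probe the dissected value was higher on 1 of 5 slides, with slide differences of -0.40 to 0.070. The likeness of the pair is that of probes with shared bases on the same arrays.

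Of the iodide transporters, the symporter could not be measured, pendrin was dim, and Slc26a7 was well above background throughout. The Slc5a5 probe was well above background on 0 of 18 arrays in either channel. Its Cy5 intensity was 106, 95.6, 109, 127 and 129 in dissected central, against 122, 96.8, 104, 132 and 154 in normal central arrays. It was 107, 111, 118, 109 and 148 in dissected peripheral, against 92.2, 95.9 and 77.3 in normal peripheral arrays. The local background of these spots was 43 to 49, and the dimmest probe marked well above background had 85.0 to 192 on an array. The level of Slc5a5 thus was not detectable with this probe in any group, which does not show that the transcript was absent. In a fit without the filter its differences were -0.0070 and 0.0045 for dissected minus normal in the central and the peripheral area, but with all groups at background they give no order.

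Pendrin (Slc26a4) was well above background on 2 of 5 dissected central, 2 of 5 normal central, 2 of 5 dissected peripheral and 0 of 3 normal peripheral arrays. Its ratio was -0.20, -0.17, 0.42, 0.82 and -0.35 in dissected central, against 0.29, -0.55, 0.40, -0.37 and -0.41 in normal central areas. It was -0.093, -0.81, 1.69, 1.55 and -0.65 in dissected peripheral, against -0.16, -0.60 and -0.063 in normal peripheral areas. The highest values, 1.69 and 1.55, were those of dissected peripheral 3 and 4, while the other 3 of that group lay below 0. Pendrin varied more within groups than most genes, with a within-group SD of 0.74, above 97.4% of the genes tested, whose median was 0.32. Since all normal peripheral arrays were dim, only a bound can be given for that group. By the Cy5 channel the dissected peripheral mean was 1.48-fold above this bound (limma adjusted p = 0.77 for the ratio), which did not pass the test. Only 2 of 5 dissected peripheral arrays measured Slc26a4 and the others were dim too, so the fold is not a minimum. It rests on dissected peripheral 3 and 4, and without dissected peripheral 3 the log2 difference of the ratio was 0.27, against 0.61 with it. In the central area dissected minus normal was 0.23 (SE 0.43, 95% interval -0.67 to 1.13, adjusted p = 0.998). In dissected glands central minus peripheral was -0.23 (SE 0.43, 95% interval -1.13 to 0.67, adjusted p = 0.963), and it turned to 0.11 without dissected peripheral 3.

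The values of Slc26a4 were also compared by the scan day that the file headers give. Slides 1 and 2, scanned on day 1, carried dissected central 3 and 4, normal central 3 and 4, dissected peripheral 3 and 4 and normal peripheral 3. With scan day as a term in the fit, Slc26a4 was higher on day 1 by 0.96 (SE 0.24), a comparison chosen after its values were seen, with a limma adjusted p of 0.551 and an unadjusted p of 0.000972. At an adjusted p under 0.05, 0 of 14663 genes, 0%, followed scan day, and for the other 7 members the term ran from -0.18 to 0.048. Within day 1 the dissected minus normal difference of Slc26a4 in the peripheral area was 1.68 (2 arrays against 1), and within day 2 it was -0.14 (3 against 2). In the central area it was 0.60 within day 1 and -0.018 within day 2. Among the normal central arrays the days overlapped, since normal central 4, of day 1, was at -0.37 and normal central 1, of day 2, at 0.29. With scan day as a block, no member was called in any comparison.

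Slc26a7, the second exchanger, was well above background on 18 of 18 arrays. Its ratio was -0.070, 0.11, -1.03, -0.48 and -1.13 in dissected central, against -0.13, -0.74, -0.45, -0.13 and -1.07 in normal central areas. It was 0.0065, 0.61, -0.52, -0.020 and -0.39 in dissected peripheral, against -0.56, -0.26 and -0.052 in normal peripheral areas. The lowest values came from central areas of both kinds, and dissected peripheral 2 was highest. In dissected glands it was 1.37-fold lower in central than in peripheral areas, a log2 difference of -0.46 (SE 0.26, 95% interval -1.01 to 0.10, adjusted p = 0.793) that did not pass the test. The central value was lower on 5 of 5 slides, with differences of -0.74 to -0.076. In normal glands central minus peripheral was -0.21 (SE 0.30, 95% interval -0.86 to 0.43, adjusted p = 0.891), and on 3 slides with both areas central was higher on 1. Dissected minus normal was -0.017 (SE 0.26, 95% interval -0.57 to 0.54, adjusted p = 0.999) in the central area and 0.23 (SE 0.30, 95% interval -0.42 to 0.87, adjusted p = 0.883) in the peripheral area. The peripheral value was higher in dissected areas on 3 of 3 slides, with differences of 0.031 to 0.86, and by Cy5 alone it was 0.63 with an adjusted p of 0.612. Without dissected peripheral 2 that difference of the ratio was 0.059, and within scan day 1 alone, with 2 arrays against 1, it was -0.22.

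The second Slc26a7 probe was well above background on 3 arrays, but its ratios followed the first with a Pearson r of 0.84 over 18 arrays. Yet in the peripheral area its dissected minus normal difference was -0.11, against 0.23 by the first probe. The central minus the peripheral change after dissection also had opposite signs, 0.09 by the second probe and -0.24 by the first. In the remaining comparisons both probes had the same sign. The second probe thus does not bear out the higher peripheral value of the first, and it was dim on most arrays. This second probe was well above background on none of the dissected central and on 1 of 5 dissected peripheral arrays. With both groups mostly dim, the Cy5 channel gives no fold between them, and the limma adjusted p for the ratio was 0.853.

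**Figure D3:**
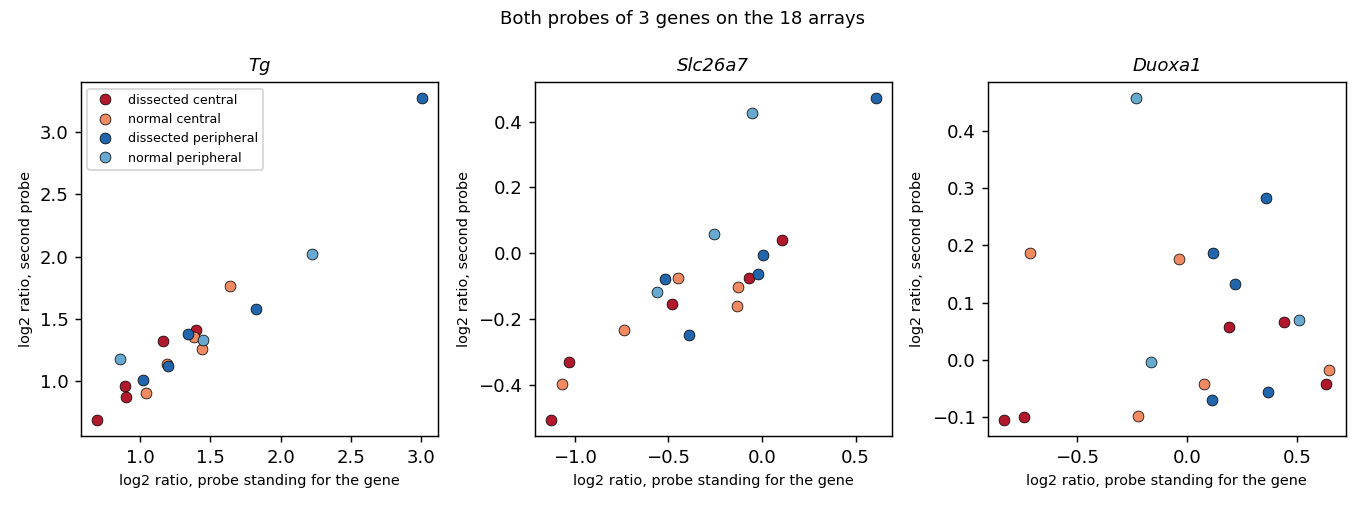
Log2 ratio of the second probe (vertical) against the probe that stands for the gene (horizontal) for Tg, Slc26a7 and Duoxa1, 1 point per array, coloured by group. The points follow a line for Tg (r = 0.96) and Slc26a7 (r = 0.84) and show none for Duoxa1 (r = 0.043).

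The genes of hydrogen peroxide production, both oxidases and both maturation factors, also gave no call. Duox1 was well above background on 16 of 18 arrays, and its values are means of 10 spots. Its ratio was 0.14, -0.17, -0.045, -0.42 and 0.077 in dissected central, against -0.34, -0.36, 0.69, -0.18 and -0.068 in normal central areas. It was -0.10, 0.38, 0.28, 0.34 and 0.51 in dissected peripheral, against 0.20, 0.14 and -0.073 in normal peripheral areas. Of the dissected peripheral arrays 4 of 5 lay above every dissected central array, and normal central 3, at 0.69, stood above all others. In dissected glands Duox1 was 1.29-fold lower in central than in peripheral areas, a log2 difference of -0.37 (SE 0.18, 95% interval -0.75 to 0.014, adjusted p = 0.689), lower on 4 of 5 slides. In normal glands central minus peripheral was -0.14 (SE 0.21, 95% interval -0.58 to 0.30, adjusted p = 0.899). Dissected minus normal was -0.035 (SE 0.18, 95% interval -0.42 to 0.35, adjusted p = 0.998) in the central area and 0.19 (SE 0.21, 95% interval -0.25 to 0.64, adjusted p = 0.843) in the peripheral area.

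Duox2, the oxidase whose loss causes hypothyroidism in people and mice, was well above background on 4 arrays, 1 in each group. Its ratio was -0.32, -0.19, -0.046, -0.23 and -0.40 in dissected central, against -0.19, -0.32, -0.28, -0.13 and -0.50 in normal central areas. It was -0.21, -0.39, -0.36, -0.38 and 0.53 in dissected peripheral, against -0.058, -0.36 and -0.13 in normal peripheral areas. The values lay close together below 0 except on dissected peripheral 5, whose Cy5 intensity was 303, against 95.7 to 120 on the other dissected peripheral arrays. Since Duox2 was dim on most arrays, this closeness and the differences below do not show a steady level. Dissected minus normal in the peripheral area was 0.021 (SE 0.18, 95% interval -0.36 to 0.40, adjusted p = 0.988), and it turned to -0.15 without dissected peripheral 5. Central minus peripheral in dissected glands was -0.077 (SE 0.16, 95% interval -0.41 to 0.25, adjusted p = 0.969), and it turned to 0.096 without that array. In the central area dissected minus normal was 0.047 (SE 0.16, 95% interval -0.28 to 0.38, adjusted p = 0.998), and in normal glands central minus peripheral was -0.10 (SE 0.18, 95% interval -0.49 to 0.28, adjusted p = 0.922).

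Duoxa1, the maturation factor of Duox1, was well above background on 18 arrays by the probe that stands for it. Its ratio was 0.19, 0.44, 0.63, -0.83 and -0.74 in dissected central, against -0.038, -0.22, 0.078, -0.71 and 0.65 in normal central areas. It was 0.37, 0.12, 0.36, 0.22 and 0.12 in dissected peripheral, against -0.16, 0.51 and -0.23 in normal peripheral areas. The 5 dissected peripheral arrays lay within 0.12 to 0.37, whereas the dissected central arrays fell into 3 above 0.18 and 2 below -0.73. The SDs were 0.12 in dissected peripheral and 0.68 in dissected central areas (n = 5 each). Central minus peripheral was -0.30 (SE 0.28, 95% interval -0.89 to 0.30, adjusted p = 0.915) in dissected and -0.087 (SE 0.33, 95% interval -0.77 to 0.60, adjusted p = 0.968) in normal glands. Dissected minus normal was -0.011 (SE 0.28, 95% interval -0.60 to 0.58, adjusted p = 0.999) in the central and 0.20 (SE 0.33, 95% interval -0.49 to 0.88, adjusted p = 0.909) in the peripheral area. Leaving out 1 array moved these values: without dissected central 4 the central value turned to 0.18 and that in dissected glands was -0.10, without normal peripheral 3 the peripheral value was 0.064, and without normal peripheral 2 the value in normal glands turned to 0.15. The second Duoxa1 probe, well above background on 3 arrays, did not follow these values (Pearson r = 0.043 over 18 arrays), and the probes differed by up to 0.90 on an array. It was well above background on 0 of 5 dissected central arrays, and no difference with that group is given for it.

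Duoxa2, the maturation factor of Duox2, was well above background on 18 arrays. Its ratio was -0.18, -0.027, -0.29, -0.43 and -0.25 in dissected central, against -0.12, -0.75, -0.75, 0.20 and -0.55 in normal central areas. It was -0.025, -0.19, 0.14, -0.66 and 0.72 in dissected peripheral, against -0.051, -0.38 and -0.093 in normal peripheral areas. The highest value, 0.72, was again that of dissected peripheral 5. Dissected minus normal was 0.16 (SE 0.22, 95% interval -0.30 to 0.62, adjusted p = 0.998) in the central area and 0.17 (SE 0.25, 95% interval -0.36 to 0.71, adjusted p = 0.897) in the peripheral area, where it turned to -0.0088 without that array. Central minus peripheral was -0.23 (SE 0.22, 95% interval -0.69 to 0.23, adjusted p = 0.915) in dissected and -0.22 (SE 0.25, 95% interval -0.75 to 0.32, adjusted p = 0.858) in normal glands. Without dissected peripheral 5, the difference in dissected glands was -0.050.

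Iyd, the deiodinase that salvages iodide, varied least of the 8 members tested, with a within-group SD of 0.21, above that of 19.1% of the genes tested. Its ratio was 0.13, 0.25, 0.24, -0.19 and -0.16 in dissected central, against 0.44, 0.24, 0.15, 0.17 and -0.016 in normal central areas. It was 0.20, 0.26, 0.77, 0.30 and 0.19 in dissected peripheral, against 0.29, 0.27 and -0.080 in normal peripheral areas. The groups overlapped, and dissected peripheral 3, at 0.77, stood above the other 17 arrays. In dissected glands Iyd was 1.22-fold lower in central than in peripheral areas, a log2 difference of -0.29 (SE 0.14, 95% interval -0.58 to 0.011, adjusted p = 0.689). The central value was lower on 5 of 5 slides, with differences of -0.53 to -0.0077, and the difference did not pass the test. In normal glands central minus peripheral was 0.038 (SE 0.16, 95% interval -0.31 to 0.38, adjusted p = 0.973). Dissected minus normal was -0.14 (SE 0.14, 95% interval -0.44 to 0.16, adjusted p = 0.998) in the central and 0.18 (SE 0.16, 95% interval -0.16 to 0.53, adjusted p = 0.793) in the peripheral area. The test of whether these changes differ between the areas gave -0.32 (SE 0.22, 95% interval -0.78 to 0.13, adjusted p = 0.794).

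Side by side, the members' differences leaned one way in comparisons that hold the dissected peripheral arrays. Within dissected glands the central value was lower for 8 of 8 members tested, with a median of -0.29 (range -0.67 to -0.077), beside a median of -0.0022 over all genes. In the peripheral area the dissected value was higher for 8 of 8, with a median of 0.19 (0.021 to 0.61), beside 0.0055 over all genes. These counts hold for the probe that stands for each gene. The second probes gave 0.16 for Tg, -0.11 for Slc26a7 and -0.079 for Duoxa1 in the peripheral area, with those of Slc26a7 and Duoxa1 dim on most arrays. Both comparisons use the same 5 dissected peripheral arrays, the members were read on the same arrays, and 0 of the 16 differences were called. Slc26a4 and Duox2 were dim on most arrays. Without dissected peripheral 5, which was high for Tg, Duox1, Duox2 and Duoxa2, 7 of 8 were lower in the first comparison and 5 of 8 higher in the second. Within scan day 1 alone 7 of 8 were lower in the first comparison and 5 of 8 higher in the second, and within day 2 alone these counts were 7 and 6. Other scalings also turned single members: in the first comparison Slc26a4 was at 0.071 by the scanner software's processed signals, and in the second Tg was at -1.24 and Iyd at -0.017 with scale normalization between arrays, Duox1 at -0.073 by Cy5 alone, and Tg and Duox2 at -0.0041 and -0.013 with the slide as a block. In the central area dissected values were higher for 3 of 8 and lower for 5, with a median of -0.014 (-0.33 to 0.23), beside -0.0061 over all genes. In normal glands central values were higher for 2 of 8 and lower for 6, with a median of -0.12 (-0.22 to 0.14), beside 0.013 over all genes, while with median centring in place of loess 7 of 8 were higher, with a median of 0.27, beside 0.28 over all genes. The central minus the peripheral change after dissection was below 0 for 7 of 8, with a median of -0.24, beside -0.018 over all genes, and adjusted p of 0.794 to 0.998. The 2 groups compared did not overlap for 0 of 8 members in each of the 4 comparisons, beside 1% of all genes for dissected against normal in the central and 4.21% in the peripheral area, and 4.86% for central against peripheral in normal and 1.67% in dissected glands.

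**Figure D4:**
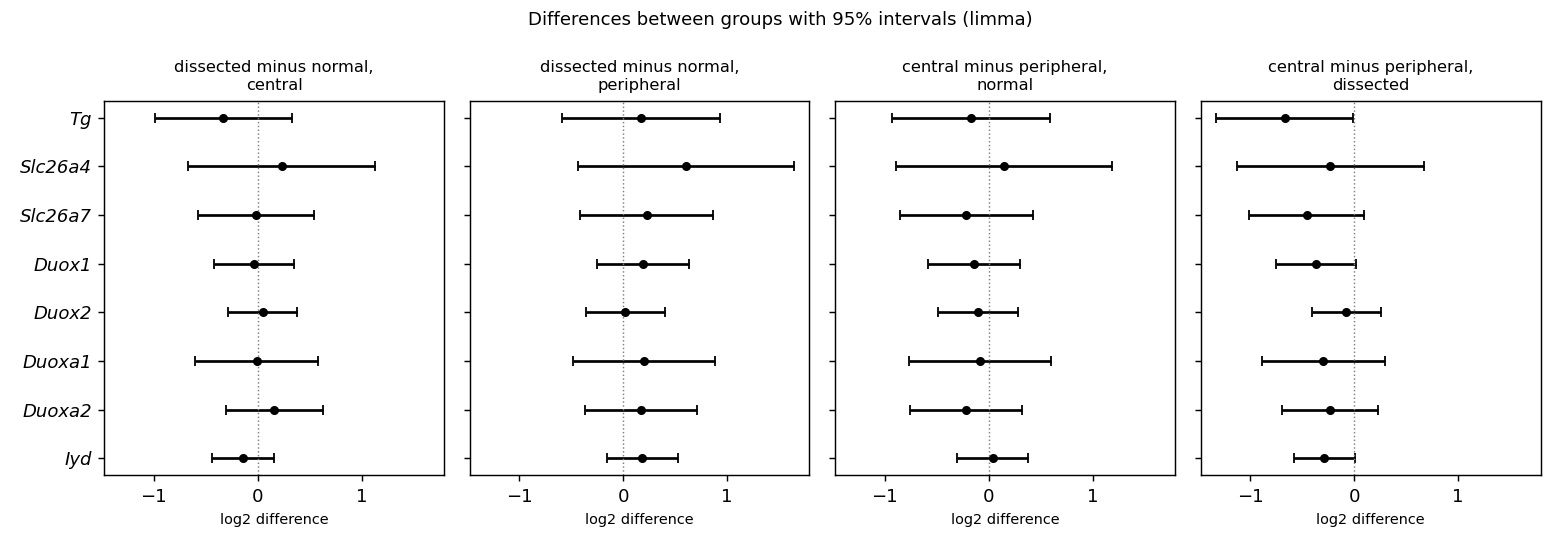
Log2 differences between groups (points) with 95% intervals from limma (bars) for the 8 members tested in 4 comparisons, with 0 as a dotted line. All points lie left of 0 in the central against peripheral comparison of dissected glands and right of 0 in the dissected against normal comparison of the peripheral area, and 1 interval of 32 leaves 0 out, that of Tg in dissected glands (-1.33 to -0.0099).

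The width of the intervals sets what could be seen. For Iyd, the tested member with the least spread, the 95% interval of dissected minus normal in the central area was -0.44 to 0.16, and for Slc26a4, the one with the most, it was -0.67 to 1.13. For Tg it was -0.99 to 0.33. The within-group SD of Tg, 0.54, was above that of 88.9% of genes, those of Duoxa1, 0.48, and Slc26a7, 0.45, were above 83.2% and 78.8%, and those of Duoxa2, Duox1 and Duox2 were above 63.2%, 42.2% and 27.4%. Duox2 was dim on most arrays, so its small SD does not mean that a small change could be seen.

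Other genes of the follicular cell showed no call either. Of 22 such genes that synthesise, regulate or release the hormone, 18 were tested, and 0 rose and 0 fell in any of the 4 comparisons. Their medians were 0.079 and 0.11 for dissected minus normal in the central and the peripheral area, beside -0.0061 and 0.0055 over all genes. For central minus peripheral they were 0.13 in normal and -0.013 in dissected glands, beside 0.013 and -0.0022. At an unadjusted p under 0.05 the limma fit gave 0 and 3 of the 18 in dissected against normal, central and peripheral, and 2 and 1 in central against peripheral, normal and dissected. Over all genes these shares were 5.24%, 8.35%, 8.59% and 7.43% in that order, and the shares called were 0%, 0%, 0.28% and 0.587%. Kcnq1, a potassium channel subunit needed for iodide uptake, differed by 0.70 in dissected glands, central minus peripheral (SE 0.23, adjusted p = 0.32). Ctsl, a protease that cleaves thyroglobulin, differed by 1.06 in the peripheral area, dissected minus normal (SE 0.39, adjusted p = 0.538).

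The relatives of the exchangers and oxidases gave the same count. Of 9 other SLC26 exchangers 5 were tested and 0 rose or fell, with 1 unadjusted limma p under 0.05 in 4 comparisons, that of Slc26a2, a sulfate transporter (-0.39 for central minus peripheral in dissected glands, SE 0.16, adjusted p = 0.604). Their medians were 0.23 and -0.066 for dissected minus normal in the central and the peripheral area, and -0.10 and 0.019 for central minus peripheral in normal and dissected glands. Of 12 other NADPH oxidase genes 8 were tested and 0 rose or fell, with 0, 2, 1 and 2 unadjusted p under 0.05 in these comparisons. Their medians were 0.058, 0.11, -0.13 and -0.071 in the same order. The counts of both lists stand beside the same shares of all genes as those of the follicular cell list. Rac1, a small GTPase that activates oxidases, differed by 0.63 in the peripheral area, dissected minus normal (SE 0.19, adjusted p = 0.47), and by -0.47 in dissected glands, central minus peripheral (SE 0.17, adjusted p = 0.42).

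Across the 18 arrays, the genes whose ratios were most like a member's were found by Pearson r over all genes tested, as a description that shares arrays and reference and includes differences between groups. For Tg they were Unc93b1 (r = 0.87), Higd2a (0.87) and Tomm6 (0.86), and without dissected peripheral 5 the values were 0.76, 0.85 and 0.76. Slc26a4 was most like Prx (0.87), Nme2 (0.83) and Il1rapl2 (0.82), and Slc26a7 most like Timm21, Ppp1r21 and Zfyve26 (0.81 each). Duox1 was most like Agpat2 (0.77), Capg (0.75) and Fam50a (0.73). For Duox2 the highest was Arfip2 (0.91), which came to 0.70 without dissected peripheral 5, and for Duoxa2 it was Tmem254a (0.82), which came to 0.71. Of the genes with a current symbol, Duoxa1 was most like Cep128 (0.79). Iyd was most like Tjp1 (0.80), Nudt8 (0.77) and Grwd1 (0.77). No member was among the 3 genes most like another member.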

How the data were processed

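Per the file headers, the deposited intensity of each spot and of its local background, in Cy5 and Cy3, came from Agilent Feature Extraction 9.5.1.1. The submitters' processing notes give 8.5.1.1 instead. Per the labels, RNA was extracted with Trizol, amplified and dye-labelled, with no dye swap. A second deposited file, of ratios on a linear scale, is the authors' value table, whose processing is not given in the sources used here. Set against the scanner's processed ratios after centring each gene, its columns had correlations of 0.993 to 1, so scale and direction were read from the values, its column medians were 0.871 to 1.06, and its earlier steps are unknown. This file, without Duox1, served as an alternative only.

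Mean spot intensities were corrected with normexp (offset 50) and normalized by loess within each array, control spots having weight 0. Non-uniform spots were left out, and spots of a probe were averaged. A RefSeq table (GRCm38.p6) named 22951 of the 41174 gene probes by accession, 6659 by symbol and 3109 by an older symbol, and 8455 kept the file's name. A probe was kept if well above background in Cy5 on at least 3 arrays, leaving 19080, and the kept probe with the highest mean intensity stood for its gene, giving 14663 genes. For a group in which a probe was not well above background on any array, a fold sets the mean of the brighter group against a bound for the dim group. The bound is the mean, per array, of the higher of the dim probe's signal and the lowest signal marked well above background, by channel after loess and Aquantile. The fold is open to dye bias since no dyes were swapped. It is no minimum where arrays of the brighter group were dim too.

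In R 4.3.3, with files read by data.table (version 1.17.8), limma 3.58.1 fitted 1 model of 4 group means to the log2 ratios, with eBayes and Benjamini-Hochberg adjustment over all genes. P-values are two-sided, and the fit was tested on simulated data. The members and the lists of follicular cell, SLC26 and NADPH oxidase genes were chosen with earlier results of these data known. All members are named. From the lists, at most the 3 genes with the smallest p in a comparison are named, and for each member the 3 genes with the highest Pearson r. Some genes of the lists are counted but not reported here by name. The number of arrays limits the precision.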

Additional observations from a re-analysis of the deposited data

Results flagged for a closer look

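In each group of 5 arrays, the values of the 12 probes were examined for an array whose gap to its nearest neighbour, as a share of the group's range, exceeds Dixon's 95% limit for 5 values. Of 108 groups of values in ratio, Cy5 and Cy3, 10 held such an array, and chance alone gives about 1 in 20. Dissected peripheral 5 accounted for 4 of them. Its second Tg probe had a log2 ratio of 3.27, against 1.01 to 1.58 on the other dissected peripheral arrays. Its Duox2 ratio was 0.53, against -0.39 to -0.21, with a Cy5 intensity of 303 against 95.7 to 120. Its Slc5a5 Cy5 intensity was 148, against 107 to 118, all of them not well above background.

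The other 6 came from 6 different arrays. Dissected peripheral 3 had an Iyd ratio of 0.77, against 0.19 to 0.30 in the rest of its group. Dissected peripheral 1 had a Cy3 intensity of 125 for Slc26a4, against 148 to 153. Dissected central 5 had a Slc5a5 ratio of -0.23, against -0.068 to -0.0015. Normal central 3 had a Duox1 ratio of 0.69, against -0.36 to -0.068. Normal central 2 had the lowest Tg Cy5 intensity of its group, 242113, against 349900 to 383112, and normal central 1 had an Iyd Cy5 intensity of 687, against 245 to 366.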

How the results depend on the processing

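No member was called under any alternative run, and the lowest adjusted p of a member was 0.129. The median difference of the members moved in these settings by more than the pooled within-group SD of each array's median over the members, which is smaller than the SD of a single member. With median centring in place of loess it was -0.18 for dissected minus normal in the central and 0.56 in the peripheral area, 0.27 for central minus peripheral in normal glands, and -0.63 for the central minus the peripheral change after dissection, while the medians of all genes under that setting were -0.15, 0.23, 0.28 and -0.40. Within scan day 1 alone it was 0.45 for dissected minus normal in the peripheral area and -0.52 for that difference between the areas. Without the 4 arrays of low signal it was -0.46 for central minus peripheral in dissected glands. The cause was not tested. Of the differences of single members recomputed under an alternative, 48 moved by more than 1 within-group SD and 1369 did not. Many of the 1369 could not move, for instance where the array left out belonged to a group not compared, or where only the groups compared were fitted. The count thus does not measure how stable the differences were. Leaving out 1 array at a time gave medians of -0.082 to 0.11 for dissected minus normal in the central area (main value -0.014), 0.089 to 0.24 in the peripheral area (0.19), -0.15 to -0.062 for central minus peripheral in normal glands (-0.12) and -0.34 to -0.23 in dissected glands (-0.29).

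With the replicate number as a replicate block, the medians were -0.014, 0.24, -0.11 and -0.29 in that order and -0.37 for the difference between the areas, no member was called, and the block changed the all-gene count in normal glands to 4 (41 without it). The numbers share a slide except for normal peripheral 3. Same-numbered arrays correlated in their deviations at 0.0738 to 0.206 for central and peripheral areas of dissected glands, where 5 of 5 matched their own number best. Elsewhere the correlations were -0.071 to 0.231. There 3 of 5 matched their own number best for dissected against normal in the central area, 2 of 3 in the peripheral area, and 1 of 3 for the areas of normal glands. These matches cannot tell a pairing by animal from a shared slide. The labels tie no areas to mice, so the main fit did not pair the arrays.

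The all-gene counts beside which the members were read did depend on the setting. For central minus peripheral in normal glands (41 genes) they were 1 to 76 when 1 array was left out, 1 without normal peripheral 2, and 0 to 154 otherwise, with 154 under median centring, 95 under scale normalization and without the weak arrays, 94 by the authors' table, 78 by the processed signals, 18 with the slide as a block, 9 without the filter, 1 within scan day 1 and 0 within day 2. In dissected glands (86 genes) they were 48 to 173 when 1 array was left out and otherwise 193 without the weak arrays, 55 with array weights, 47 under median centring, 45 by Cy5 alone, 30 under scale normalization, 26 within scan day 1, 21 with only the groups compared and 0 within day 2. For dissected minus normal (0 genes) at most 2 were called in the central and 5 in the peripheral area, and for the difference between the areas (0 genes) at most 4.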
